A study of Gallus gallus with 6 samples.

Results

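Homeobox and T-box genes outside the HOX clusters were followed in cultured cells of the chicken bursa, the gut-associated organ in which B cells of birds mature. The members were all probe sets whose single gene symbol in the platform annotation began with IRX, MEIS, PBX, PITX, MSX, DLX, LHX, PRRX, TBX, NKX, EMX, OTX, GSC or SHOX, or with the sine oculis prefix of SIX3, followed by a digit, or was GSC alone. This rule found 81 of 38439 probe sets, which stood for 51 of 13009 named genes in 14 of the 15 families. No SHOX gene with a digit was found. A further 2 probe sets carried the symbols of several genes, a member among them, and were left out.

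Line 0 chickens aged 3 weeks gave the bursal cells, which were cultured overnight on a monolayer of DF1 cells, an adherent chicken embryo fibroblast line, and then washed off. The 3 control arrays came from cells on DF1 carrying the vector, and the 3 SCA2 arrays from cells on DF1 expressing SCA2Flag, a tagged stem cell antigen 2, the product of LY6E. Both groups were plated at 2000000 cells in medium with 4% serum, and the labelled sample for each Affymetrix chicken array was made from 10 µg of total RNA. The sample titles call the arrays biological replicates, but whether different birds were used for each culture is not stated. The p-values therefore reflect the spread among these 6 arrays alone, which may be partly technical.

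Homeodomain and T-box proteins are transcription factors named after the domains with which they bind DNA. They set regional and cell identity in the embryo: PITX1 and TBX4 in the hindlimb, TBX5 in the forelimb and heart, PRRX1, PRRX2 and MSX2 in limb and facial mesenchyme, OTX2, LHX2 and EMX2 in the brain, and NKX2-1 in thyroid and lung. Many stay active in mesenchymal cells such as fibroblasts after development, while in blood cells the members best known are MEIS1 and the PBX proteins, which bind DNA together with HOX proteins.

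Values are log2 intensities of the deposited RMA values, and changes are SCA2 minus control on that scale. A gene is represented by its probe set of highest mean over the 6 arrays, called the brightest. Unless another test is named, a change was called at an adjusted p of 0.05 in limma, with Benjamini-Hochberg adjustment over all 38439 probe sets. The background mark, 4.96, was set at the 95th percentile of the mean log2 intensity of 746 probe sets not named after chicken transcript clusters. The deposited medians per array lay between 51.2 and 53.1, and precision throughout is limited by having 3 arrays per group.

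Markers of several cell types differed between the groups. Among all named genes 26.2% were called higher and 20.8% lower. Of 26 fibroblast markers 17 were higher (65.4%) and 6 lower (23.1%) with SCA2, the count of falls near the share of all named genes. A rise of at least 2-fold was called for 11. S100A11, POSTN, TIMP3 and COL12A1 changed by -1.65, -1.62, -1.24 and -1.12, each a called fall of over 2-fold. The summed intensity of the 26 markers was 56017 to 57813 on the control arrays and 81356 to 81665 on the SCA2 arrays. PDGFRA and LOX lay below the background mark in both groups, while COL1A1, the main collagen chain of fibroblasts, lay above it in both. Of 18 B cell markers 15 were lower and 0 higher, with sums of 43834 to 45071 and 15303 to 18590, and 0 of the 18 lay below the mark in both groups. T and NK cell markers (12 of 14 lower, 1 higher), macrophage and dendritic cell markers (12 of 16 lower, 0 higher) and epithelial markers (14 of 17 lower, 0 higher) were lower too. Of 14 endothelial markers 4 were higher and 1 lower, the count of rises near the share of all named genes. Among them FLT1, CDH5 and ERG rose by 1.90, 1.63 and 1.42. PECAM1 and VWF changed by -0.62 and -0.56, neither called. In this list 9 genes were not called, and the median change over the 14 was -0.23. Of 8 smooth muscle and pericyte markers 1 was higher and 3 lower. Of 9 neuronal and glial markers 3 were higher and 0 lower, and these lists are short. The endothelial sum was 3159.6 to 3758.9 on the control arrays and 8207.7 to 8701.0 on the SCA2 arrays. In the same order the smooth muscle and pericyte sum was 1305.1 to 1374.0 and 1951.5 to 1987.2. The median change of that list was -0.20. TAGLN, by far its brightest marker (mean 9.68 on the control and 10.63 on the SCA2 arrays), was the 1 called higher. The neuronal and glial sum was 359.7 to 414.7 on the control arrays and 668.5 to 712.4 on the SCA2 arrays. The median change of that list was -0.05, and the 3 called higher were NEFL, RET and TUBB3 (1.83, 1.67 and 0.42). All these sums add linear intensities, so the brightest markers weigh most. In the endothelial list the brightest were ERG, FLT1 and CDH5. In bulk samples fewer cells of a type and less RNA per cell cannot be told apart. The epithelial sum also differed within groups, with 14143, 28244 and 18926 on control 1, 2 and 3 and 4993, 4816 and 10291 on SCA2 1, 2 and 3. The part of cell mixture in the changes below was not tested. Whether DF1 cells were carried into the samples was not tested either. The DF1 monolayer itself differed between the groups, and RNA from such cells and RNA from bursal cells cannot be told apart here.

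Rises were led by IRX1 and PRRX2, and falls were few and small. With SCA2 15 genes were called higher (29.4%), 3 lower (5.88%) and 33 were not called, where 26.2% of all named genes were called higher and 20.8% lower. The share of higher calls is thus near the background. A rise of at least 2-fold was called for 10 of the 51 genes (19.6%), against 5.86% of all named genes, and a fall of at least 2-fold for 0, against 5.43%. The groups did not overlap in 24 of the 51 genes (47.1%), against 61.3% of all named genes. The median change over the 51 genes was -0.02, beside -0.01 over all named genes. Counted by probe set, 20 of 81 were higher and 6 lower, against 18.2% and 17.1% of all probe sets. Higher calls ran from 0.37 to 3.30, lower calls lay between -0.35 and -0.27, and genes that were not called lay between -0.31 and 0.30. The counts of each family below are to be read beside the 26.2% and 20.8% of all named genes. The families are small, with 1 to 12 genes each.

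**Figure D1:**
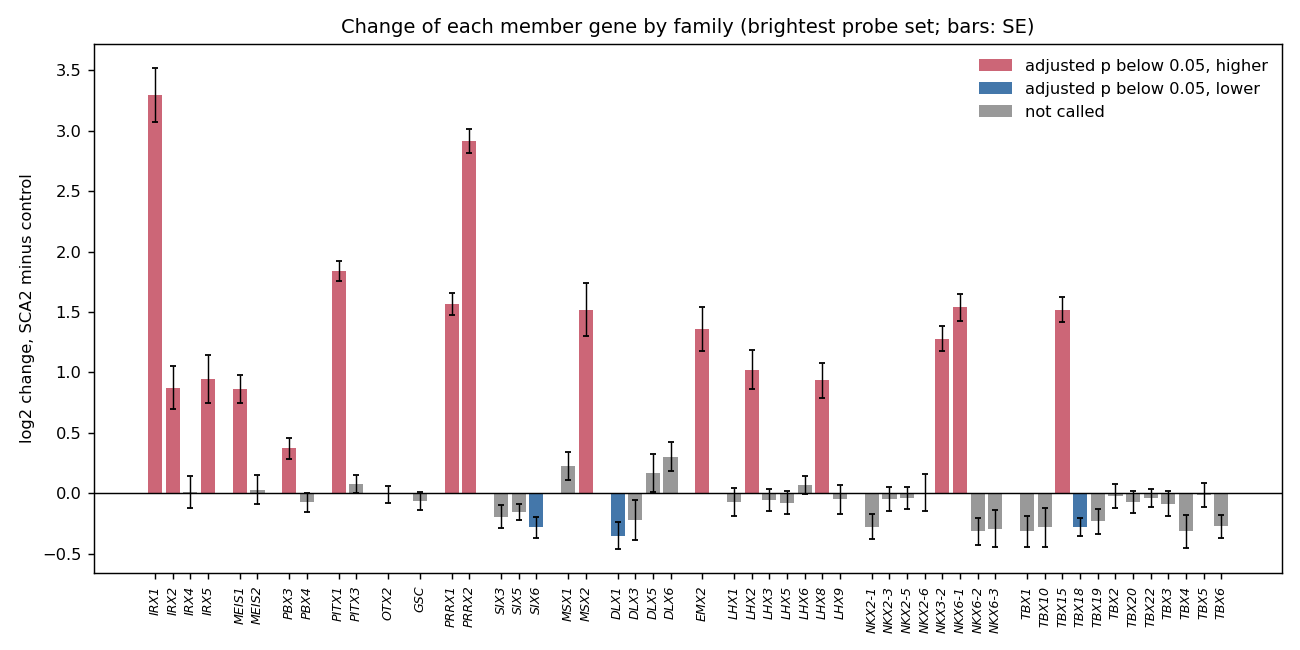
Log2 change (SCA2 minus control, y axis) of the brightest probe set of each of the 51 genes, grouped by family along the x axis, with SE as error bars and colours for the call. 15 genes stand above 0 as called, led by IRX1 at 3.30 and PRRX2 at 2.91, and the 3 called lower lie between -0.35 and -0.27.

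The Iroquois genes, which pattern heart, limb and neural tissue, had 3 of 4 members higher. IRX1 measured 5.98, 6.16 and 6.88 on the control arrays and 9.59, 9.77 and 9.54 on the SCA2 arrays. It changed by 3.30 (SE 0.22, 9.82-fold; limma, adjusted p = 6.35e-05) and ranked 8 among the 13009 named genes by log2 change. Control 3 was its highest control value and still lay far below the lowest SCA2 value. IRX5, which acts in heart, eye and limb, measured 5.61, 5.38 and 5.73 on the control arrays and 6.97, 6.18 and 6.41 on the SCA2 arrays. Its change was 0.94 (SE 0.20, 1.93-fold; limma, adjusted p = 0.00943), with SCA2 1 the highest. The other probe set of IRX5 went the opposite way (-0.36; limma, adjusted p = 0.0363) and lay below the background mark in both groups, so that IRX5 was the 1 gene with probe sets called both ways. The mean of both probe sets changed by 0.29 and was not called (limma, adjusted p = 0.0739). IRX2 was called higher (0.88, SE 0.18; limma, adjusted p = 0.00816), but both of its means, 3.83 ± 0.26 and 4.70 ± 0.29 (SD, n = 3), lay below the mark. IRX4, known for the heart ventricle, was not called, with a change of 0.01 and a 95% interval of -0.30 to 0.32.

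The paired-related genes PRRX1 and PRRX2 both rose. PRRX2 measured 7.01, 6.93 and 7.25 on the control arrays and 10.06, 9.95 and 9.92 on the SCA2 arrays, a change of 2.91 (SE 0.10, 7.53-fold; limma, adjusted p = 1.29e-05) that ranked 18 among named genes. Every SCA2 array stood well above every control array, and the values within a group were close. A second probe set of PRRX2 changed by 2.82, while the other two, at 5.62 and 4.41 on the control arrays, changed by -0.0038 and 0.23 and were not called. PRRX1 measured 10.69, 10.44 and 10.64 on the control arrays and 12.12, 12.22 and 12.13 on the SCA2 arrays. All 3 of its probe sets were called higher, with changes between 1.48 and 1.64 (limma, adjusted p between 4.12e-05 and 9.21e-05). PRRX1 was well above the background mark on the control arrays too.

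PITX1, which specifies the hindlimb, measured 9.77, 9.69 and 9.76 on the control arrays and 11.59, 11.66 and 11.48 on the SCA2 arrays. The change was 1.84 (SE 0.08, 3.58-fold; limma, adjusted p = 2.4e-05), and the second probe set of PITX1 changed by 1.79. The groups did not overlap. PITX3, a gene of the lens and of midbrain dopamine neurons, lay below the mark and changed by 0.08. OTX2, a gene of forebrain and eye, and GSC, a gene of the gastrula organizer, also lay below the mark in both groups and changed by -0.01 and -0.06, neither called.

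Of the MSX genes, which respond to BMP signals in limb and face, MSX2 was called and MSX1 was not. MSX2 measured 7.47, 8.43 and 7.83 on the control arrays and 9.46, 9.41 and 9.42 on the SCA2 arrays, a change of 1.52 (SE 0.22, 2.87-fold; limma, adjusted p = 0.00158). Control 2 was its highest control value, and the SCA2 arrays differed from each other by little. MSX1 went from 7.80 ± 0.20 to 8.03 ± 0.08 (SD, n = 3), a change of 0.23 with a 95% interval of -0.05 to 0.50. EMX2, a gene of the cortex and the urogenital tract, measured 7.27, 6.56 and 7.24 on the control arrays and 8.37, 8.38 and 8.40 on the SCA2 arrays. Its change was 1.36 (SE 0.18, 2.57-fold; limma, adjusted p = 0.00123), and control 2 was the lowest. The other probe set of EMX2 changed by 0.16 and was not called.

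**Figure D2:**
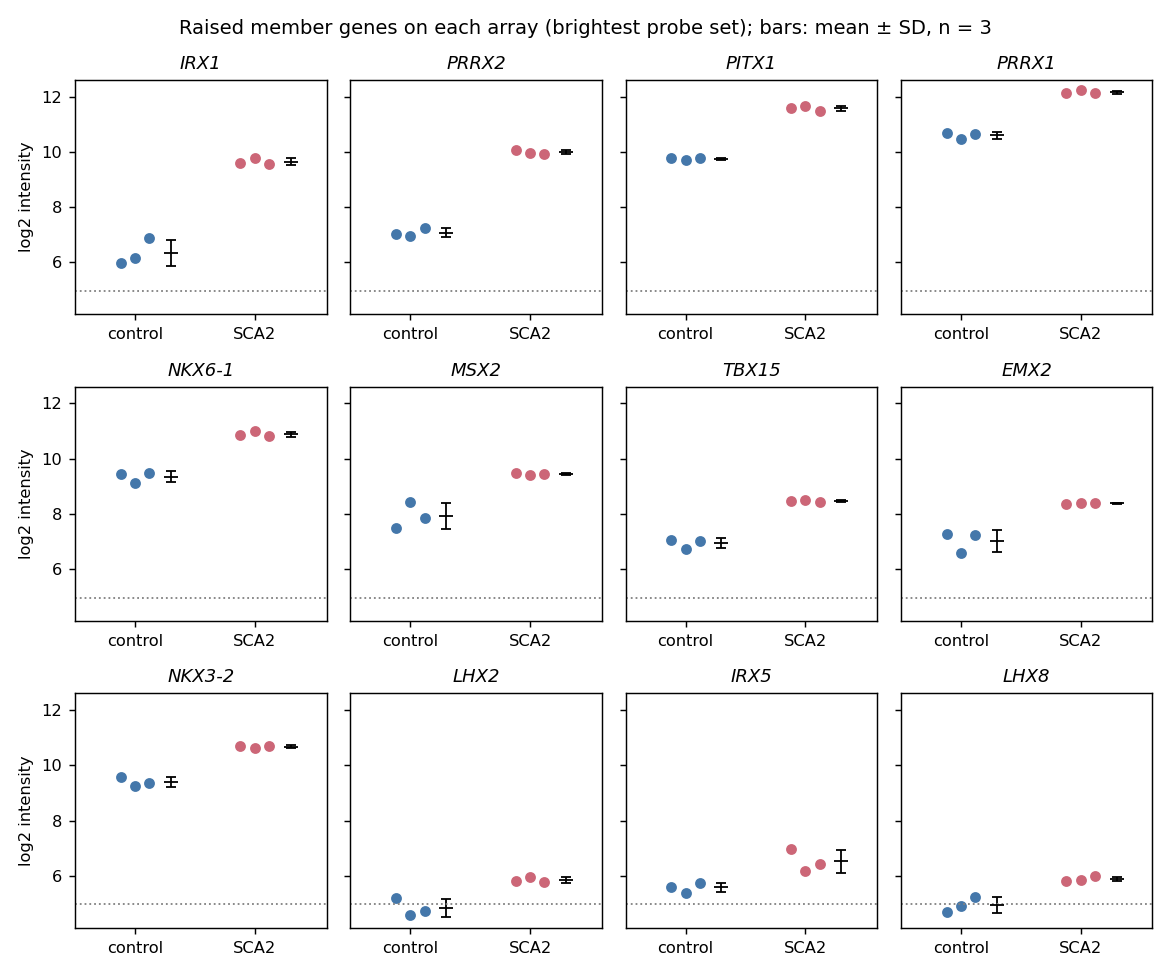
Log2 intensity (y axis) of the 12 genes of largest called rise on each control array (blue) and each SCA2 array (red), with the mean ± SD (n = 3) beside each group and the background mark of 4.96 as a dotted line. The groups are apart in each panel, and the control values of LHX2 and LHX8 lie near the mark.

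In the NKX family 2 of 8 genes rose, near the 26.2% of all named genes. NKX6-1, known from pancreatic beta cells and motor neurons, measured 9.45, 9.12 and 9.46 on the control arrays and 10.86, 10.99 and 10.80 on the SCA2 arrays. It changed by 1.54 (SE 0.11, 2.91-fold; limma, adjusted p = 9.05e-05) and lay far above the mark in both groups. NKX3-2, a gene of cartilage and of the mesenchyme of gut and spleen, measured 9.59, 9.24 and 9.36 on the control arrays and 10.69, 10.62 and 10.71 on the SCA2 arrays. Its change was 1.28 (SE 0.10, 2.42-fold; limma, adjusted p = 0.000124), and the second probe set rose by 0.74 (adjusted p = 0.0117). The other 6 genes were not called. NKX2-1, NKX2-3 of gut and spleen mesenchyme, NKX2-5 of the heart and NKX6-3 of the stomach lay below the mark in both groups, with changes between -0.29 and -0.04. NKX2-6 changed by 0.01 and NKX6-2, a gene of oligodendrocytes, by -0.31.

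Among the LIM homeodomain genes 2 of 7 rose, near the 26.2% of all named genes. Both rose from control levels below the mark, so their folds are relative to background signal. LHX2 measured 5.20, 4.57 and 4.71 on the control arrays and 5.80, 5.96 and 5.79 on the SCA2 arrays (change 1.02, SE 0.16; limma, adjusted p = 0.00248). LHX8, a gene of basal forebrain neurons and teeth, measured 4.67, 4.92 and 5.24 on the control arrays and 5.82, 5.84 and 5.98 on the SCA2 arrays (change 0.94, SE 0.14; limma, adjusted p = 0.00222). In both genes the highest control value lay below the lowest SCA2 value. LHX1 of kidney and head, LHX3 of the pituitary, LHX5, LHX6 of interneurons and LHX9 of the gonad changed by -0.08 to 0.07 and were not called.

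T-box genes were the largest family, with 12 genes, of which 1 rose and 1 fell. TBX15, a gene of limb skeleton and adipocytes, measured 7.06, 6.73 and 7.01 on the control arrays and 8.45, 8.48 and 8.43 on the SCA2 arrays. Its change was 1.52 (SE 0.10, 2.87-fold; limma, adjusted p = 6.28e-05), while its second probe set changed by -0.12 and was not called. TBX18, a gene of the epicardium and sinus node, measured 5.12, 5.05 and 5.00 on the control arrays and 4.82, 4.80 and 4.73 on the SCA2 arrays, around the background mark (change -0.27, SE 0.07; limma, adjusted p = 0.0248). The other 10 genes changed by -0.31 to -0.01, and 4 of the family, TBX4, TBX10, TBX19 and TBX20, lay below the mark in both groups. TBX1 of the pharyngeal arches changed by -0.31 with a 95% interval of -0.62 to -0.0049, and TBX6 of the paraxial mesoderm by -0.27 with an interval of -0.50 to -0.05. Both intervals lie below 0 before adjustment, and neither gene passed the adjusted test. The brightest probe set of TBX5 changed by -0.01, and another, at 4.78 on the control arrays, fell by 0.42 (limma, adjusted p = 0.006).

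The TALE cofactors MEIS and PBX, partners of HOX proteins on DNA, had 2 of 4 genes higher. MEIS1, which is active in blood stem cells, measured 5.72, 5.93 and 6.07 on the control arrays and 6.90, 6.61 and 6.79 on the SCA2 arrays, a change of 0.86 (SE 0.12; limma, adjusted p = 0.00121). PBX3 measured 9.27, 9.02 and 9.18 on the control arrays and 9.55, 9.54 and 9.49 on the SCA2 arrays, the smallest rise among those called (0.37, SE 0.09; limma, adjusted p = 0.0142). Its groups were apart by less than the rises above, and the call was lost without SCA2 1 (limma, adjusted p = 0.0535). MEIS2 changed by 0.03 and PBX4 by -0.07, with 95% intervals of -0.24 to 0.31 and -0.25 to 0.10, and 0 of the 3 probe sets of PBX4 were called.

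In the DLX family and among SIX3, SIX5 and SIX6 there were 0 genes higher. DLX1, a gene of forebrain interneurons, measured 5.75, 5.92 and 5.62 on the control arrays and 5.37, 5.31 and 5.56 on the SCA2 arrays, a change of -0.35 (SE 0.11; limma, adjusted p = 0.043). Of its 3 probe sets 2 were called lower. The others changed by -0.36 (limma, adjusted p = 0.0472) and -0.20 (not called), both below the mark in both groups. SIX6, a gene of the eye and pituitary, measured 4.21, 4.19 and 4.43 on the control arrays and 4.01, 3.99 and 4.00 on the SCA2 arrays, below the mark throughout (change -0.28, SE 0.09; limma, adjusted p = 0.0429). The gaps between groups were small in both genes. DLX3, DLX5 and DLX6, genes of skin and skeleton, changed by -0.22, 0.17 and 0.30. DLX3 and DLX6 lay below the mark in both groups. The other probe sets of DLX5 and DLX6 went the opposite way, by -0.13 and -0.23. SIX3 of the forebrain changed by -0.19. The gene with the platform symbol SIX5, whose correspondence to mammalian SIX5 was not checked, changed by -0.15, and none of these was called. The 3 falls of DLX1, SIX6 and TBX18 depended on single arrays and settings. Without SCA2 1 the adjusted p in limma was 0.126, 0.106 and 0.0626, and without SCA2 2 it was 0.118, 0.098 and 0.0548, in that order. DLX1 also lost its call without control 1 (limma, adjusted p = 0.0798) or control 2 (0.11). SIX6 lost it without control 1 (limma, adjusted p = 0.0509), control 3 (0.104) or SCA2 3 (0.117). TBX18 lost it without control 1 (limma, adjusted p = 0.0608), control 2 (0.0517) or SCA2 3 (0.0975). After a second quantile normalization it was 0.0732, 0.15 and 0.0614, and over all alternatives the adjusted p of DLX1 lay between 0.0236 and 0.126, that of SIX6 between 0.0143 and 0.157 and that of TBX18 between 0.0166 and 0.0975.

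Many members were dim. In 19 of the 51 genes both group means lay below the background mark, and of these 1 was called higher, IRX2, and 1 lower, SIX6. Their median change was -0.07, beside -0.09 over all 2242 named genes that lay below the mark in both groups, of which 3.52% were called higher and 9.37% lower. In the other 32 genes, with a mean above the mark in at least 1 group, 14 were higher and 2 lower, where 30.9% and 23.1% of the 10767 such named genes were. A gene could enter these 32 through the group in which it was high, so the count describes the genes and supports nothing about them.

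**Figure D3:**
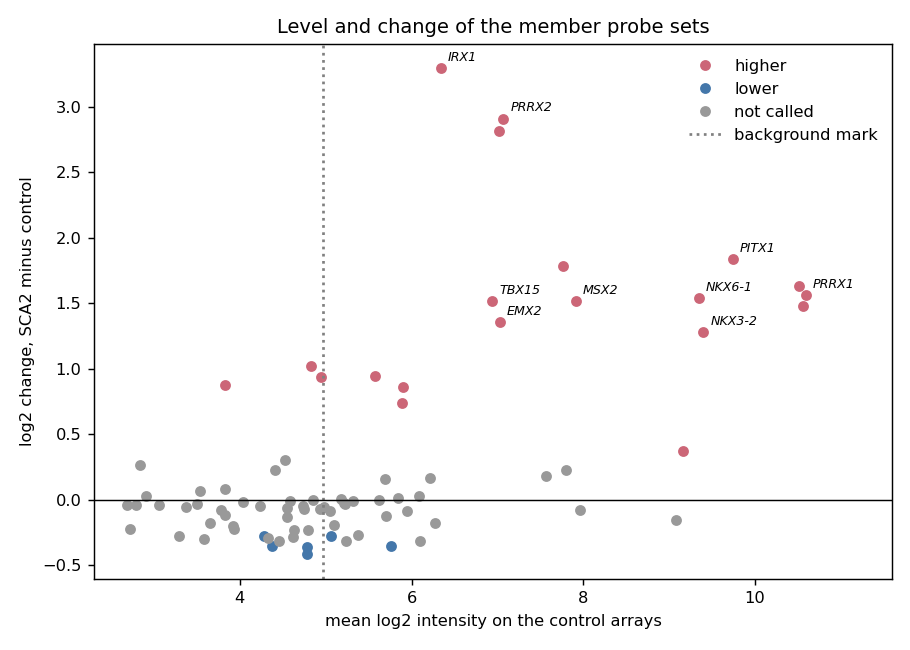
Mean log2 intensity on the control arrays (x axis) and log2 change (SCA2 minus control, y axis) of the 81 member probe sets, coloured by call, with the background mark of 4.96 as a dotted line. The 6 probe sets called lower changed by -0.42 to -0.27 from control means between 4.28 and 5.76, while the rises of IRX1, PRRX2, PITX1 and PRRX1 start from control means above the mark.

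Genes that lie next to each other in the genome did not all change alike. In the reference annotation IRX2 lay next to IRX1 and to IRX4, and their changes were 0.88, 3.30 and 0.01, the last not called. TBX3 and TBX5 were neighbours and changed by -0.08 and -0.01. TBX2 and TBX4, with 1 gene between them, changed by -0.02 and -0.31. DLX5 and DLX6 were neighbours and changed by 0.17 and 0.30, while their other probe sets changed by -0.13 and -0.23. None of the T-box and DLX pairs had a gene called by its brightest probe set. Another probe set of TBX5, below the mark in both groups, was called lower (-0.42; limma, adjusted p = 0.006). Differences between neighbours were not tested.

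**Figure D4:**
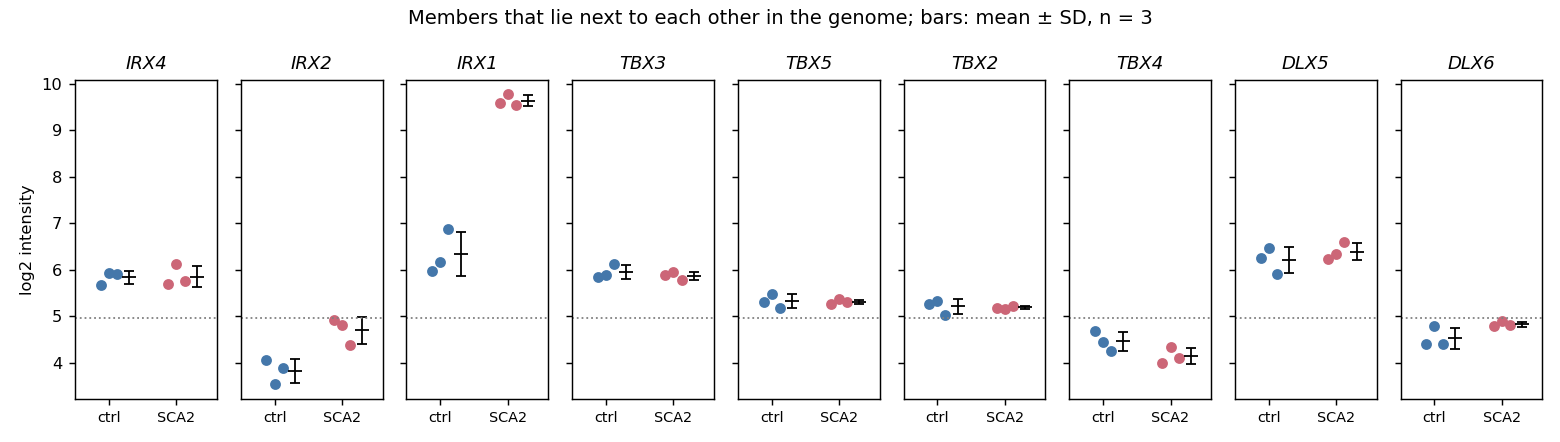
Log2 intensity (y axis) on each control array (blue) and SCA2 array (red) of members that lie side by side in the genome or with 1 gene between them, with the mean ± SD (n = 3) and the background mark of 4.96 as a dotted line. IRX1 goes from 6.34 ± 0.48 to 9.63 ± 0.12 while IRX4 goes from 5.84 ± 0.14 to 5.85 ± 0.23.

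The control arrays ordered the raised genes in a partly shared way, and the SCA2 arrays did so less clearly. Among the 12 genes of largest rise, control 2 was the lowest control array in 9 and the highest in 1, MSX2. On the SCA2 arrays SCA2 3 was the lowest in 6, and SCA2 1 and SCA2 2 in 3 each. SCA2 2 was the highest in 6, and SCA2 1 and SCA2 3 in 3 each. A shared order was not tested. Control 2 was also the control array with the highest sums of epithelial (28244), macrophage and dendritic cell (17872.5) and B cell markers (45071). It had the lowest sums of T and NK cell (9827), endothelial (3159.6) and neuronal and glial markers (359.7). Its fibroblast and smooth muscle sums lay between those of the other controls. Any link of these sums to the order of the raised genes was not tested. Without control 2, 17 of the 51 genes were called higher, and without each other array in turn 14 or 15 were. The shares of all named genes called in those fits are not given here, so these counts say nothing particular to the members.

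Partner and related factors were described from 6 lists, of which 68 of 77 genes were measured by symbol. Together 14 were higher (20.6%) and 16 lower (23.5%), near the 26.2% and 20.8% of all named genes, with a median of -0.09. The counts of each list below are to be read beside the same shares of all named genes. Without SCA2 1 or without SCA2 3 the lower count was 10. In a list of LIM domain genes and cofactors 3 of 14 were higher and 1 lower. It also held ISL1, ISL2 and LMX1B, which are LIM homeodomain genes outside the rule. Whether SSBP1 and LMO7 act with LIM homeodomain proteins was not checked. LDB2, a bridging cofactor of LIM homeodomain proteins, measured 7.62, 7.32 and 7.53 on the control arrays and 8.63, 8.77 and 8.56 on the SCA2 arrays (change 1.17; limma, adjusted p = 0.000186). LMO7 changed by 0.87 (limma, adjusted p = 0.000143) and LMO4 by 0.52 (adjusted p = 0.0114). LMO2, a LIM-only factor of blood cell development, changed by -0.89 (limma, adjusted p = 0.00116).

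Of 6 EYA and DACH genes, whose products are partners of SIX3 and its relatives, 1 was lower and 0 were higher. The one called, EYA2, changed by -0.68 (limma, adjusted p = 0.00536) from a level below the mark. Of 5 TALE relatives 2 were higher, TGIF2, a repressor in TGF-beta signalling, by 0.64 (limma, adjusted p = 0.00076), and MKX, a factor of tendon cells, by 0.70 (adjusted p = 0.0103) from a level below the mark. Of 4 measured TLE corepressors 1 was higher and 1 lower. TLE3 measured 8.08, 7.82 and 8.10 on the control arrays and 8.97, 8.90 and 9.08 on the SCA2 arrays (change 0.98; limma, adjusted p = 0.000364). TLE4 measured 10.63, 10.55 and 10.64 on the control arrays and 9.20, 8.93 and 9.38 on the SCA2 arrays (change -1.44; limma, adjusted p = 0.000141). The groups did not overlap for either gene, and TLE1 and AES were not called.

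In the list of heart and T-box partners 7 of 12 genes were lower and 1 higher, with a median of -0.41. TBXT, the brachyury gene of the early mesoderm and itself a T-box factor outside the symbols of the rule, measured 8.52, 8.61 and 8.47 on the control arrays and 7.67, 7.56 and 7.65 on the SCA2 arrays (change -0.91; limma, adjusted p = 0.000153). MEF2C, a factor of muscle and of B cells, changed by -0.95 (limma, adjusted p = 0.00582) and MGA, which carries a T-box, by -0.48 (adjusted p = 0.00331). As the mean of its probe sets MGA was not called (limma, adjusted p = 0.0557). EOMES and TBR1, also T-box genes outside the symbols of the rule, were called lower too. EOMES changed by -0.57 (limma, adjusted p = 0.00937). TBR1 changed by -0.43 (limma, adjusted p = 0.0213), below the mark in both groups. HAND2, a factor of heart and limb, was the 1 that rose (0.64; limma, adjusted p = 0.00556).

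Of 27 developmental transcription factors outside the rule, listed mainly for mesenchyme, 7 rose and 6 fell, with a median of -0.12. Both counts were near the 26.2% and 20.8% of all named genes. The list also held CDX1, CDX2 and CDX4, and CDX2, among the falls, was counted with the epithelial markers too. ALX1, PAX9 and TLX1, also called lower, lay below the mark in both groups. The largest called falls were those of MEOX2 and SOX9. MEOX2 went from 5.48 to 4.45, the SCA2 mean below the mark (change -1.04; limma, adjusted p = 0.0205). SOX9 went from 6.84 to 6.14, above the mark in both groups (change -0.70; limma, adjusted p = 0.00411). TWIST2, a basic helix-loop-helix factor of dermal mesenchyme, measured 9.98, 9.40 and 9.87 on the control arrays and 12.36, 12.53 and 12.45 on the SCA2 arrays, a change of 2.70 (SE 0.15, 6.48-fold; limma, adjusted p = 3.87e-05). MAB21L2 measured 8.78, 8.16 and 8.68 on the control arrays and 11.22, 10.96 and 10.97 on the SCA2 arrays, a change of 2.51 (SE 0.17, 5.69-fold; limma, adjusted p = 6.42e-05). SNAI1, a repressor of epithelial genes, changed by 1.32 (limma, adjusted p = 0.000158) and FOXD1 by 1.29 (adjusted p = 0.000234). In these 4 genes control 2 was the lowest control array, as it was in 9 of the 12 homeobox and T-box genes of largest rise.

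**Figure D5:**
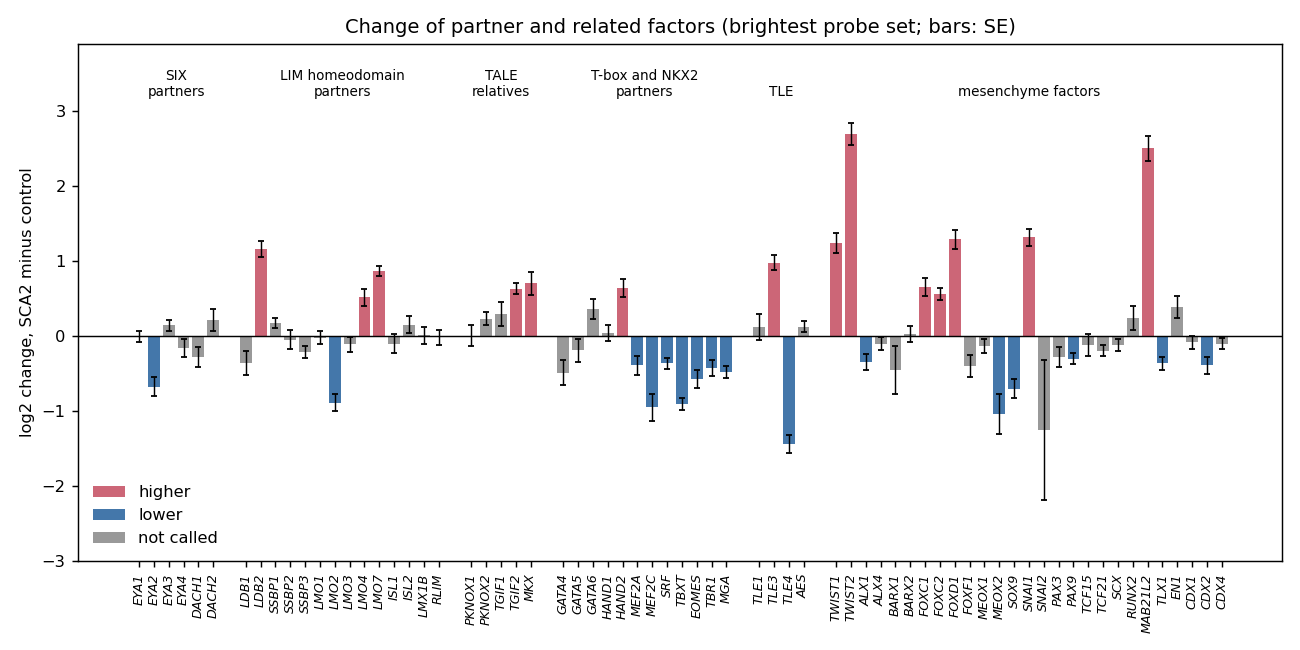
Log2 change (SCA2 minus control, y axis) of the brightest probe set of 68 partner and related factors, grouped by list along the x axis, with SE as error bars and colours for the call. 14 genes are higher and 16 lower, with TWIST2 at 2.70 and MAB21L2 at 2.51 the largest rises and TLE4 at -1.44 the largest called fall.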

How the data were processed

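The deposited intensity values were linear, from 4.28 to 20715, and were made by the authors with RMA per the submitters' processing notes. Its version is not given in the sources used here. This method makes the arrays' distributions alike, so changes are relative to the other probe sets. Log2 was taken. Of 38535 probe sets, 96 array controls were left out, and 27168 of the others had 1 gene symbol in the platform annotation, 177 several and 11094 none. Gene identifiers of 50 of the 51 members were found in the RefSeq table of assembly GRCg7b, which gave genomic neighbours only.

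The limma model (version 3.58.1, R 4.3.3; lmFit and eBayes at defaults) had 1 term for the group and covered 38439 probe sets. Arrays with 38439 probe sets, 200 of them changed, were simulated. The share recovered was 73% at a log2 size of 1 and 97% at a size of 2, with 9 calls among unchanged probe sets. Spreads were shuffled among probe sets, and far fewer changed than the 18.2% and 17.1% called higher and lower here. The shares therefore do not give the recovery in these data. Figures used Python 3.11.15 and matplotlib 3.10.9. With 3 against 3 arrays an exact permutation p cannot go below 0.1, so none is given.

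The members, the lists of partners and markers and the tests were chosen with earlier results of these data known. Values on each array are given for the 12 raised and up to 12 lowered members of largest called change, other members by family, and up to 4 called genes of smallest p from each partner list. MEIS1, PBX3 and IRX2 were called and lie outside the 12. Control arrays with the same replicate number as an SCA2 array are not said to be paired. The labels name no batch, and one that coincided with the groups and the groups themselves cannot be told apart. No sequences are shown, since no sequence table was used here.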

Additional observations from a re-analysis of the deposited data

How the results depend on the processing

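Results were recomputed under the alternatives that apply to them, at least 16 for each result listed here and 20 for the counts of member genes. The count of raised member genes stayed between 10 and 17 (15 as reported). It was 14 when only genes with a group mean above the background mark were counted, a choice made after seeing the data. A gene could pass that choice through the group in which it was high, so the 14 lends no support. Of 282 recomputed values of the 15 raised genes 273 kept direction and call. The exceptions were IRX5, LHX8, IRX2, MEIS1 and PBX3 under the 2-fold threshold, IRX5 as the mean of its probe sets (0.29; limma, adjusted p = 0.0739), and PBX3 at an adjusted p of 0.01, after cyclic loess (0.26; limma, adjusted p = 0.0507) and without SCA2 1. Of 53 values of DLX1, SIX6 and TBX18, 18 kept their call. Of 320 values of the 17 named partner genes 306 kept theirs, and 0 of all 655 values reversed.

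Lowered probe sets, 6 as reported, numbered 2 after a second quantile or cyclic loess normalization, 3 after centring or with a variance trend and robust fit, 1 at an adjusted p of 0.01, and 0 under the filter at the median of probe set means or at 2-fold; leaving out an array gave 1 to 6. Lowered genes, 3 as reported, numbered 1 after either normalization or centring, and 0 with the variance trend, the filter at the median, an adjusted p of 0.01 or 2-fold; leaving out an array gave 0 to 4. The median change of -0.02 was 0.0312 after quantile normalization, 0.066 after cyclic loess and 0.0105 after centring. Leaving out an array gave -0.04 to 0.01. It was 0.90 under the filter at the median, which kept 20 of the 51 genes. That filter used the mean over all 6 arrays, so genes could pass through high SCA2 values, and the 0.90 describes the genes kept only. The counts of partner genes and fibroblast markers, and the single values of partner genes, MEIS1, PBX3 and IRX2, were recomputed as an addition after seeing the data. Partner genes numbered 6 higher and 2 lower at 2-fold, 10 lower under the filter at the median and 9 lower at an adjusted p of 0.01, and 10 to 16 lower without an array (SCA2 1 and SCA2 3 gave 10, against 16). Fibroblast markers higher numbered 11 at 2-fold, against 17.

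The cause of these differences was not tested, except that the filters and stricter thresholds leave fewer genes by construction. With the replicate number as a replicate block the same 15 member genes were higher. Of the 3 lowered genes, 1 was shared, TBX18 (limma, adjusted p = 0.0335). DLX1 (0.0714) and SIX6 (0.0511) were not called under the block, and NKX2-1 (0.0467) and NKX6-2 (0.0257), named here after their values were seen, were called lower. The deviations of same-numbered arrays correlated with r of 0.41, 0.12 and 0.04, and control 2 correlated better with SCA2 3 (0.33), so the numbers were not taken to pair arrays. Other scalings moved the median of all probe sets by at most 0.04. Dim genes limit what can be seen: 19 of the 51 lay below the background mark in both groups.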
